A study of Mus musculus with 44 samples.

Results

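The genes described here code for the proteins of the splicing machinery that carry the names SR, hnRNP, Snrp, SF3A, SF3B and U2AF. They were chosen by symbol alone, with no measured value in the rule: every mouse gene whose symbol began with Srsf and a digit, Hnrnp, Snrp, Sf3a, Sf3b or U2af. Earlier results of these data were known when the genes were chosen. The rule found 55 protein-coding genes among the 17158 RefSeq genes of the deposited tables. Of these, 10 were SR genes, 21 hnRNP genes, 12 snRNP genes, and 12 were factors that act with the U2 snRNP (Sf3a, Sf3b and U2af).

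The study measured mRNA levels by RNA-seq, ribosome-protected fragments (RPFs) by ribosome profiling, and poly(A)-tail lengths by tail sequencing in mouse brain tissue and cultured mouse cortical neurons. It asked how tail length relates to translational efficiency (TE, footprints per unit of mRNA) in neurons, and whether stimulation or a microRNA alters either. All animals were mice, and the study names C57BL6J as its strain. The tissues were hippocampi of embryos at embryonic day 16, the hippocampus of an adult male and the cortex of an adult male, each untreated. The 9 cultures were grown from cortices of pups at postnatal day 0 to 1. The study states 2 batches of 3 cultures, from 2 litters per batch, and does not name the cultures in each. For the others no batch is stated. At 10 days in vitro (DIV10), 1 was an unstimulated control and the others received KCl for 10 min or 30 min. At 14 days in vitro (DIV14), 1 was an unstimulated control, 1 received BDNF, a neurotrophin, and 1 received glutamate with glycine (glu/gly), each for 30 min. A further 3 DIV14 cultures had been transduced on day 5 with lentivirus that expressed GFP from the synapsin promoter, a promoter active in neurons. The GFP transcript carried pre-miR-155 in a culture, pre-miR-1a-1 in another and no microRNA in the third, the control of both. Visual cortex came from 8 mice aged 6 to 7 weeks and housed in the dark for 1 week. Of these, 4 were taken in the dark and 4 after 1 h of light. Each culture and each of the 3 tissues had 1 library per assay, so only light against dark could be tested. For every other comparison, intervals around single genes are 95% Clopper-Pearson intervals that cover counting error only.

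Pre-mRNA splicing is carried out by the spliceosome, which is built from small nuclear ribonucleoproteins (snRNPs), each a small nuclear RNA with a ring of Sm proteins and particle-specific proteins. U2AF recognises the 3′ splice site, and SF3A and SF3B, parts of the U2 snRNP, hold it on the branch point. SR proteins bind exons and mostly favour their inclusion, whereas hnRNP proteins coat nascent transcripts and often oppose it. In brain, Snrpn, an imprinted gene expressed from the paternal chromosome, codes for SmN, a close relative of the SmB protein encoded by Snrpb.

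The depth limited what could be read for single genes. RNA-seq libraries held 448022 to 7689624 reads on listed genes, the 10 assigned RPF libraries 2812215 to 23212489 and the tail libraries 86841 to 4812273 tags. Of the 55 genes, 51 were listed in all 12 RNA-seq libraries, 51 in all 10 assigned RPF libraries and 46 in all 20 tail libraries. A TE value was available for 22 genes in all 10 samples and for 12 in none. Only 7 genes had at least 50 tags, the minimum for a tail length, in all 20 tail libraries. Levels are given as CPM, the reads of a gene scaled to a fixed total of reads on all listed genes, and between genes as CPM per kb of the counted open reading frame. Several members had few assigned reads, among them Hnrnpa3, Hnrnpf, Srsf3, Srsf10, Snrpg, Snrpf, U2af1 and Hnrnpa1l2-ps2, and the values of genes with near-identical copies, which also include Hnrnpa1 and Hnrnpk, are uncertain. Snrpn shares a bicistronic transcript with Snurf, and it was absent from the tables of the 8 visual cortex libraries.

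Summed over the 55 genes, splicing factor mRNA was most abundant in the embryonic hippocampus. The sum was 14397 CPM there, 5982 CPM in the adult hippocampus, 4126 CPM in the adult cortex and 5456 to 7143 CPM in the 9 cultures. RPFs were in the same order, with 19740, 7723 and 6965 CPM in the tissues and 6614 to 9797 CPM in the cultures with assigned footprints. The hnRNP genes made up most of the sum, with 10020 CPM of mRNA in the embryonic and 3349 CPM in the adult hippocampus. Of the 47 genes with at least 50 reads in the embryonic hippocampus, 30 were highest there among the 12 RNA-seq libraries and 26 were lowest in the adult cortex. Such ranks were not counted over all genes. Snrpn was the only gene of the 47 that was lowest in the embryo. The hippocampal RNA was poly(A)-selected and that of the cortex rRNA-depleted, so tissue and RNA selection cannot be told apart in ranks across these libraries. Per kb, and among the 16 to 47 members with at least 50 reads in a library, Hnrnpab, which binds AU-rich RNA, was among the 5 highest genes in all 12 libraries, and Hnrnpa2b1, an hnRNP that also takes part in mRNA transport in neurons, and Snrpn were so in 11.

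**Figure D1:**
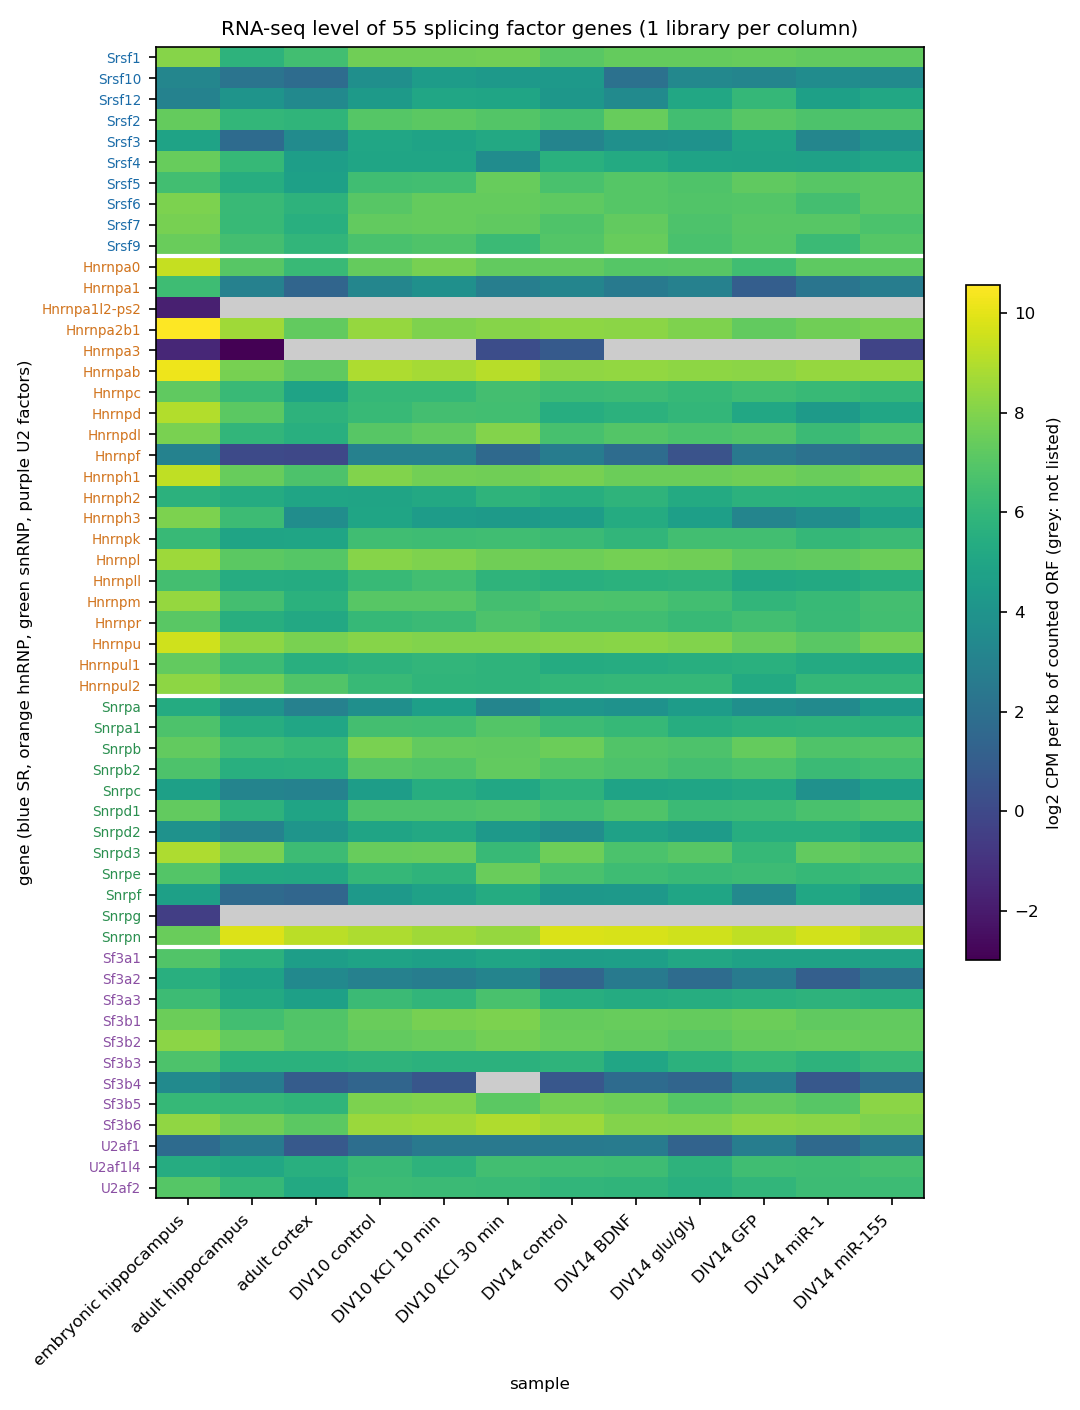
RNA-seq level of the 55 genes (rows, grouped by class) in 12 samples (columns, 1 library each), as log2 CPM per kb of counted open reading frame. Grey cells are genes that are not listed. The column of the embryonic hippocampus is the brightest for most rows, and Snrpn is the exception.

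Adult against embryonic hippocampus compares a region before birth and in maturity, with RNA-seq from poly(A)-selected RNA in both. Most splicing factor mRNAs were lower in the adult. Of 50 genes with enough reads, 36 were at least 2-fold lower and 2 at least 2-fold higher, and the median log2 change was −1.21. Among all 11770 genes measured, 26.4% were at least 2-fold lower and 20.7% at least 2-fold higher, with a median of −0.26. The counting interval lay below 0 for 46 of the 50 and above 0 for 2. The same counts were not made over all genes. Leaving Snrpn out gave a median of −1.22.

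The SR genes, which bind exonic enhancers, had a median log2 mRNA change of −1.34, and 8 of 10 were at least 2-fold lower. Srsf1, a shuttling SR protein that also acts in translation and mRNA decay, stood at 150 CPM in the embryo and 30.4 CPM in the adult, 4.93-fold lower (4.26 to 5.72). Srsf2, a nuclear SR protein, stood at 100 and 39.2 CPM, 2.56-fold lower (2.23 to 2.94). Srsf7 and Srsf6 were 3.16-fold (2.80 to 3.58) and 3.22-fold (2.92 to 3.56) lower. Srsf12 was the SR gene with more mRNA in the adult, at 5.98 and 12.2 CPM, 2.04-fold higher (1.42 to 2.98), and it had 0 RPFs in the embryo against 362 in the adult. With the embryonic library set at a floor of 3 reads, the footprint ratio of Srsf12 was at least 129-fold. In the embryonic library 24 genes with at least 10 RPM of mRNA had 3 or fewer footprints, against 0 to 3 genes in the cortex and each culture. The part of such gaps in this ratio was not tested.

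The hnRNP genes differed most, with a median of −1.56 and 17 of 19 at least 2-fold lower. Hnrnpab stood at 1130 CPM in the embryo and 207 CPM in the adult, 5.46-fold lower (5.17 to 5.77). Hnrnpa2b1 stood at 1471 and 392 CPM, 3.76-fold lower (3.61 to 3.92). Hnrnpu, which binds nuclear RNA and chromatin and was the most abundant member in the embryo on the CPM scale, stood at 1771 and 716 CPM, 2.47-fold lower (2.40 to 2.55). Hnrnpa1 was 10.5-fold lower (8.04 to 13.9), from 664 reads in the embryo and 60 in the adult, and Hnrnpa0, an hnRNP that binds AU-rich elements, was 5.03-fold lower (4.66 to 5.42). The smallest difference in the class was that of Hnrnph2, with 1.29-fold less in the adult (1.13 to 1.47).

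The snRNP genes had a median of −1.30, with 7 of 10 at least 2-fold lower and 1, Snrpn, higher. Among the Sm genes, Snrpb was 1.95-fold (1.72 to 2.20), Snrpd3 2.03-fold (1.84 to 2.25) and Snrpd1 2.97-fold lower (2.42 to 3.67). Genes of the U2-specific proteins Snrpa1 and Snrpb2 were 2.58-fold (2.21 to 3.02) and 2.34-fold (1.99 to 2.75) lower. The U2 factor genes stood closest to the background, with a median of −0.81 and 4 of 11 at least 2-fold lower. Sf3b1, the largest SF3B subunit, stood at 713 and 344 CPM, 2.07-fold lower (1.98 to 2.17). U2af2, the large U2AF subunit, stood at 177 and 94.2 CPM, 1.88-fold lower (1.72 to 2.07).

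Footprints followed the same direction. Of 51 genes with enough RPFs, 32 were at least 2-fold lower and 3 at least 2-fold higher in the adult, beside 33.5% and 24.8% of all 11061 genes, and the median was −1.31 beside −0.30. Of 49 genes measured in both assays, 45 were lower in both, 28 at least 2-fold lower in both, and 1, Snrpn, was higher in both. These joint counts were not made over all genes. Srsf1 footprints were 5.61-fold lower (5.29 to 5.96) and those of Hnrnpl, an hnRNP that binds CA repeats, 4.51-fold lower (4.37 to 4.65). Srsf3 went in opposite directions on few reads, with mRNA 8.52-fold lower (4.56 to 17.6, from 99 and 11 reads) and RPFs 5.96-fold higher (4.34 to 8.35, from 46 and 256 reads). Snrpc and Snrpe had 623 and 410 RPFs in the embryonic library and 1 each in the adult, ratios of 581 (104 to 22997) and 383 (68.3 to 15147). In the 7 cultures with assigned footprints Snrpc had 8.65 to 20.4 CPM. The hippocampal RPF libraries had 24 and 14 genes with at least 10 RPM of mRNA and 3 or fewer footprints, against 0 to 3 such genes in each of the other 8 samples; its part in the extreme ratios was not tested.

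**Figure D2:**
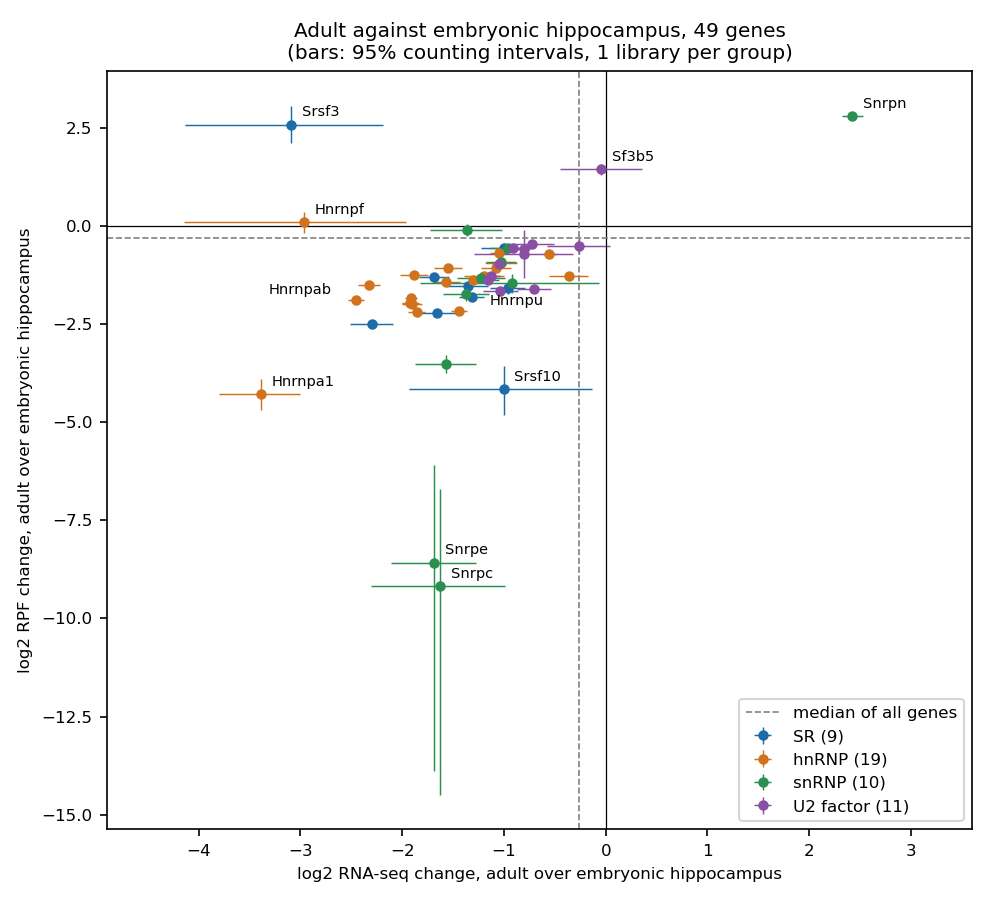
Log2 change of RNA-seq (x axis) and of RPFs (y axis) in adult over embryonic hippocampus for 49 genes past both read minima, with 95% counting intervals and 1 library per group. Dashed lines mark the medians of all genes. Most points lie in the lower left quadrant, Snrpn lies alone in the upper right, and Snrpc and Snrpe have the lowest RPF ratios and the widest intervals.

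TE, taken from the deposited RPM rather than from the CPM above, differed little between the hippocampi. The median TE change of 37 genes was 0.24, beside 0.22 for all genes, and 1 gene, Hnrnpa0 at 1.09, was at least 2-fold higher and 0 lower, beside 15.8% and 7.66% of all 5431 genes. Tails could be compared for 7 genes. Their median change was −13.0 nt, beside −10.0 nt for all 169 genes. Of the 7, 5 were at least 10 nt shorter in the adult and 0 longer, beside 50.3% and 1.18% of all genes. The tail change was −19.0 nt for Srsf1 and 7.50 nt for Hnrnpu, so the genes did not share a direction.

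Cell composition moved with this comparison. The 8 markers of progenitors and cycling cells summed to 2583 CPM in the embryo, with all 8 listed, and to 63.6 CPM in the adult, where Ccnb1 was not listed. The 8 neuronal markers went from 1751 to 5638 CPM, the 6 astrocyte markers from 439 to 2186 CPM and the 6 oligodendrocyte markers from 35.2 to 1684 CPM, with Gjb6 and Mog not listed in the embryo. The part of these markers in the result was not tested, and in bulk tissue fewer cells of a type and less RNA per cell cannot be told apart. Among other splicing genes, listed with earlier results known, 18 of 46 genes of the core spliceosome were at least 2-fold lower in the adult and 0 higher (median −0.84). The counts were 9 lower and 1 higher of 16 SR-related genes (−1.09), and 11 lower and 0 higher of 18 other hnRNP-like RNA-binding genes (−1.56). Among all genes 26.4% were lower and 20.7% higher, with a median of −0.26. With tail tags in place of RNA-seq, 24 genes had a median of −0.89 beside 0.26 for all genes, 17 of the 23 genes measured by all 3 assays were lower in all, and Sf3b1 turned to 0.062. The count by all 3 assays was not made over all genes.

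Snrpn went the other way from its class. It stood at 117 CPM in the embryonic hippocampus and 628 CPM in the adult, a log2 change of 2.43 (2.32 to 2.53), and its RPFs at 44.2 and 307 CPM were 6.94-fold higher (6.49 to 7.41). It stood at 379 CPM in the adult cortex. In culture it stood at 315 CPM at DIV10 and 598 CPM at DIV14, 1.90-fold higher (1.63 to 2.21) at the later age, with RPFs 1.61-fold higher (1.46 to 1.77). Snurf, the other reading frame of the transcript, stood at 29.1 and 172 CPM in the embryonic and adult hippocampus and at 94.9 and 179 CPM in the DIV10 and DIV14 controls. Per kb, Snrpn was the highest of the 55 genes in the adult hippocampus (933 CPM per kb), adult cortex (563) and DIV14 control (888), while in the embryo it stood at 174 beside 1508 for Hnrnpa2b1. Snrpb, its relative, was higher in the embryo (103 CPM) than in the adult hippocampus (52.9 CPM). Neuronal markers were also higher in the DIV14 control (2838 CPM) than in the DIV10 control (2308 CPM), and in the adult than in the embryonic hippocampus. In both pairs they differed by a smaller ratio than Snrpn, and neither their part nor that of culture batch was tested. Across the 10 samples other than the microRNA cultures, and among 1944 genes with at least 50 reads in each, the genes with the closest order of levels were 2610507B11Rik and Cpe (both Spearman 0.99), Mlf2 (0.98), Atp1b1 (0.96) and Map3k10 (0.95), from libraries that also share their depth and RNA selection.

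**Figure D3:**
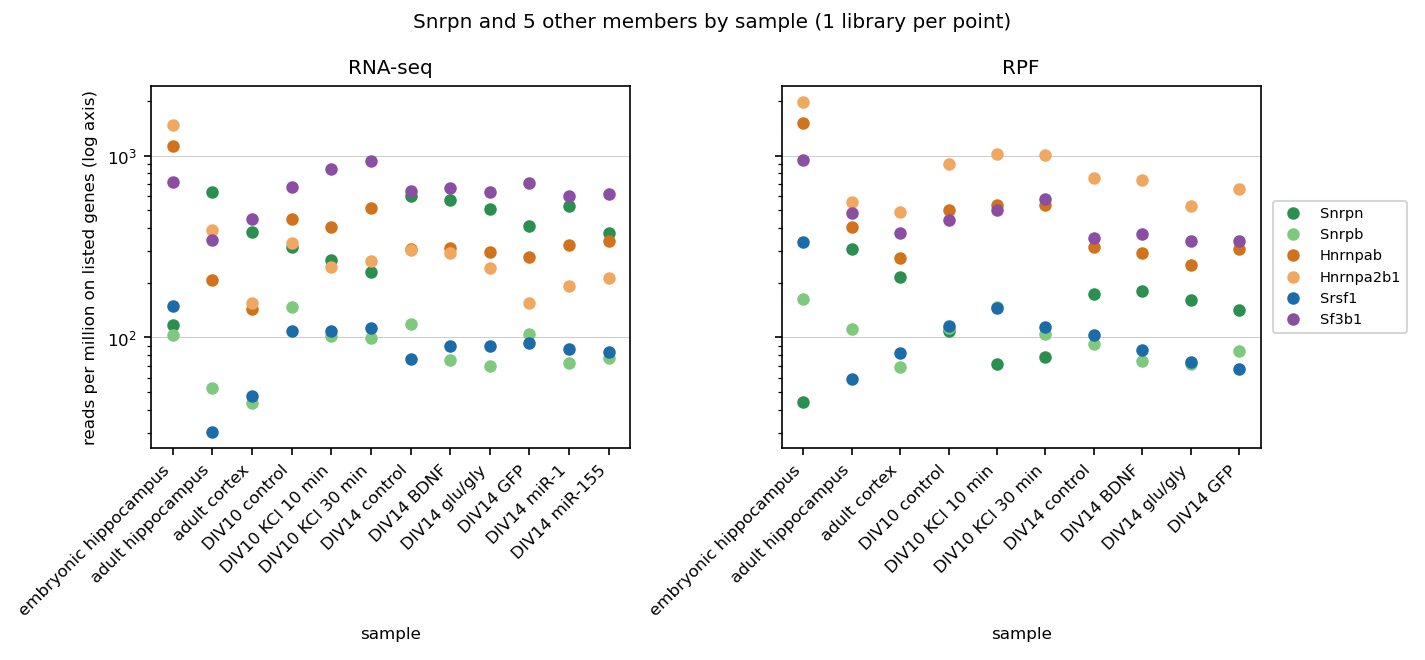
RNA-seq (left, 12 samples) and RPF (right, 10 samples) levels of Snrpn and 5 other genes in CPM on a log axis, 1 library per point. Snrpn is lowest in the embryonic hippocampus, at 117 CPM of mRNA and 44.2 CPM of footprints, where Hnrnpab and Hnrnpa2b1 are highest.

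The promoters are shown for genes at both ends of this comparison. RefSeq promoter windows on GRCm38.p6 were matched for 48 of the 55 genes, 65 windows in all, of which the 250 bases upstream of each start are used. The windows were searched on both strands for the CCAAT box (CCAAT), the TATA box (TATAAA), the GC box (GGGCGG) and the ETS core (CCGGAAG), and matches to different motifs may overlap. The CCAAT box was found in 46.2% of the member windows and 33.8% of all 32851, the GC box in 64.6% and 32.7%, the ETS core in 26.2% and 6.91%, and the TATA box in 10.8% and 12.4%. The median GC content was 60.8% in the member windows and 52.4% in all, and GC-rich motifs move with it. Windows of genes with several starts overlap in part, so these shares are descriptions. The window upstream of the counted Snrpn transcript (chr7:60140226-60140475, minus strand) held none of the motifs, that of Hnrnpab (chr11:51606882-51607131, minus strand) held 4 matches and that of Srsf1 (chr11:88047123-88047372, plus strand) held 1. They are printed 5′ to 3′ with matches in capitals.
Snrpn: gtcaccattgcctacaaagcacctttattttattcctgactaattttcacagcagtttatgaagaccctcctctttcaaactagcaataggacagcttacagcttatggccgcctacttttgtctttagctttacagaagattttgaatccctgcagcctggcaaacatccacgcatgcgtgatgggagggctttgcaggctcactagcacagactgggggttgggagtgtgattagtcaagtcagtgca
Hnrnpab: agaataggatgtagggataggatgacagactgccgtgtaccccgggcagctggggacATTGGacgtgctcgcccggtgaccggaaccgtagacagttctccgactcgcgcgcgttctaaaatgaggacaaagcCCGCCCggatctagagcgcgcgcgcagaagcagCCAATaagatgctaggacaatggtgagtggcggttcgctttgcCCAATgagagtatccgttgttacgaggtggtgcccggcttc
Srsf1: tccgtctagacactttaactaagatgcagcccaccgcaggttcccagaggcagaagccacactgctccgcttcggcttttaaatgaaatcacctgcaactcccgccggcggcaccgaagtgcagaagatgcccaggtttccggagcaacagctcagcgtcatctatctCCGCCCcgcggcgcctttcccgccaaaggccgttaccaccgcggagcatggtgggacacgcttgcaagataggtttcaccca

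Adult cortex against adult hippocampus sets rRNA-depleted beside poly(A)-selected RNA-seq, so region and RNA selection cannot be told apart. The splicing factor mRNAs were lower in the cortex library, whereas their footprints were not. Of 45 genes, 11 were at least 2-fold lower in mRNA and 0 higher, beside 9.68% and 9% of all 10672 genes, with a median of −0.56 beside −0.01. Footprints of 52 genes had a median of −0.04 beside 0.02, with 5 lower and 5 higher, beside 12.4% and 15.9% of all 11626 genes. Hnrnpd, an AU-rich element binding protein, had 1.37 less log2 mRNA (1.06 to 1.69 less) and 0.33 more log2 RPFs in the cortex (0.25 to 0.42), and Hnrnpa2b1 stood at −1.35 (−1.54 to −1.16) and −0.18 (−0.24 to −0.13). TE was taken from the deposited RPM, so it is not the difference of these CPM changes. It was higher in the cortex, with a median of 0.75 over 25 genes beside 0.51, with 8 at least 2-fold higher and 0 lower, beside 22.1% and 1.18% of all 4813 genes. The largest TE difference was 2.23 for Hnrnpd. Tail tags had a median of −0.56 over 32 genes beside −0.03, from TAIL-seq in the cortex and PAL-seq v2 in the hippocampus, so that region and method cannot be told apart there either. On the deposited RPM, whose total reaches beyond the listed genes, the median mRNA change was −1.17.

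Adult cortex against the DIV14 control compares tissue with culture. Of 36 genes, 16 had at least 2-fold less mRNA in the cortex and 0 more, beside 17% and 17.2% of all 7309 genes, with a median of −0.97 beside −0.18. Srsf5, an SR protein, was lowest at −1.98 (−2.69 to −1.29) and Hnrnpul2, a relative of Hnrnpu, highest at 0.91 (0.55 to 1.29). Footprints had a median of −0.30 over 50 genes beside −0.06, with 4 lower and 0 higher, beside 10.2% and 10.3% of all 11040 genes. With tail tags, 44 genes had a median of −0.34 beside −0.05. TE was higher in the cortex by a median of 0.69 over 24 genes beside 0.12, with 2 at least 2-fold higher and 0 lower, beside 6.02% and 12.4% of all 4086 genes. The median tail change of 25 genes was −11.8 nt beside −12.4 nt, and 18 were at least 10 nt shorter, beside 62.4% of all 2663 genes. Hnrnpm, an hnRNP that binds GU-rich RNA, was the only gene with longer tails in the cortex, at 126 and 114 nt, beside 0.601% of all genes at least 10 nt longer. Progenitor markers moved here as well, at 54.4 CPM in the cortex and 550 CPM in the culture, and oligodendrocyte markers at 2027 and 64.9 CPM; their part was not tested.

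Between DIV10 and DIV14 the levels differed little. The culture batches at these ages are not named, and the part of batch was not tested. No gene of 38 was 2-fold higher or lower in mRNA, beside 2.09% higher and 4.87% lower among all 6976 genes, and the median was −0.15 beside −0.03. Snrpn, at 0.92, had the largest mRNA difference. Footprints of 51 genes had a median of −0.18 beside −0.08, and Srsf12 alone passed 2-fold, at 1.02 (66 and 71 reads at DIV14 and DIV10), with 0 lower, beside 4.02% and 7.85% of all 11445 genes. TE of 32 genes had a median change of −0.03 beside 0.04, with 0 past 2-fold, beside 1.18% higher and 0.178% lower among all 4500. Tails were longer at DIV14, by a median of 9.55 nt over 33 genes beside 6.93 nt, and 13 were at least 10 nt longer and 0 shorter, beside 32.6% and 1.45% of all 2820 genes. Srsf6 tails, at 103 and 123 nt, differed most.

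In every sample the median TE of the splicing factor mRNAs was above that of all genes, over the 25 to 42 members with a value. The median log2 TE of the genes was 1.20 in the embryonic hippocampus beside 0.67 for all genes, with 34 of 42 above the all-gene median. It was 1.48 beside 0.88 in the adult hippocampus, 2.38 beside 1.31 in the adult cortex, 1.67 beside 1.17 in the DIV10 control and 1.67 beside 1.14 in the DIV14 control. In the last of these, 27 of 35 genes lay above the all-gene median. Of the 22 genes with TE in all 10 samples, 16 were above the all-gene median in each, and 1, Snrpn, was below it in each. The share of all genes above or below in each sample was not counted.

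The hnRNP genes had class medians 0.52 to 1.20 above the all-gene median in the 10 samples, and the U2 factors 0.27 to 1.04. The other classes fell on both sides. The SR medians ran from −0.33 (GFP culture) to 0.75 (adult cortex, 2 genes), with −0.22 after glu/gly. The snRNP medians, from 2 to 8 genes, ran from −0.75 (GFP culture) to 0.21 (10 min of KCl). They were also below 0 in the DIV14 control, after BDNF and after 30 min of KCl. In the adult hippocampus and after glu/gly the U2 factors stood above the hnRNP genes, at 0.66 beside 0.60 and 0.57 beside 0.52. Hnrnpd had the highest median, 2.69 above the all-gene median (0.60 to 3.32 in 8 samples), followed by Sf3a1, an SF3A subunit (1.95, 9 samples), Hnrnpul2 (1.95, 10 samples), Hnrnpa2b1 (1.84, 10 samples) and Hnrnpa0 (1.69, 10 samples). These genes depended on the sample. The log2 TE of Hnrnpd was 1.29 and 1.48 in the poly(A)-selected hippocampi and 3.51 to 4.45 in the other 6 samples with a value, and that of Hnrnpul2 was 1.13 and 1.25 in the hippocampi and 2.37 to 4.05 elsewhere. The hippocampal libraries were poly(A)-selected and that of the adult cortex rRNA-depleted, whereas the step is not known for each culture. The study states rRNA depletion for 6 cultures without naming them, and elsewhere counts 6 cultures at DIV14. The part of the RNA selection in these values was not tested.

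At the other end, Snrpn lay 1.14 below the all-gene median (0.53 to 1.40 below). Its TE put it at the 14.0 percentile of all genes in the embryonic hippocampus, the 22.5 percentile in the adult hippocampus and the 7.72 percentile in the DIV14 control. Srsf9, an SR protein with a short RS domain, lay 0.81 below the all-gene median and under it in all 8 samples with a value. Sf3b1, with 0.24 below and 3 of 10 samples above, and Srsf6, with 0.12 below and 3 of 10 above, stood near the typical mRNA.

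Stimulation of the cultures left most splicing factor mRNAs close to their control, and the calls here use a 1.5-fold limit. The BDNF, glu/gly and GFP cultures were each compared with the same DIV14 control, so these comparisons share its libraries, and the KCl cultures share the DIV10 control. The batch of each culture is not named, and the part of batch in these comparisons was not tested. After BDNF, 1 of 34 mRNAs was higher and 2 lower, beside 3.66% and 4.96% of all 4840 genes. After glu/gly, 0 were higher and 2 of 34 lower, beside 7.76% and 6.77% of all 5229. After 10 min of KCl, 0 of 38 passed the limit either way, beside 3.83% and 5.05% of all 7052. After 30 min of KCl, 5 of 40 were higher and 3 lower, beside 9.42% and 14.5% of all 7413. The immediate early genes used as a check of stimulation summed to 66.8 CPM in the DIV14 control, 1406 CPM after BDNF and 748 CPM after glu/gly, and to 46.2, 97.9 and 463 CPM in the DIV10 control and after 10 and 30 min of KCl.

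The 30 min KCl culture had the widest spread. Snrpe, an Sm gene, stood at 15.1 CPM in the control and 39.9 CPM after KCl, a log2 change of 1.40 (0.52 to 2.32, from 18 and 32 reads). Srsf5 stood at 64.6 and 131 CPM, a change of 1.02 (0.58 to 1.46), and Srsf4, another SR gene, stood at −1.35 (−2.32 to −0.48, from 53 and 14 reads). Their footprints differed less, with −0.03 (−0.72 to 0.60) for Snrpe, 0.30 (0.08 to 0.52) for Srsf5 and −0.09 (−0.36 to 0.18) for Srsf4. Over 50 genes, 1 had footprints 1.5-fold higher and 0 lower, beside 5.5% and 14.4% of all 11337. The median mRNA change of the 40 genes was 0.02 on the main scale and −0.48 on the deposited RPM.

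Footprints were lower after glu/gly. Of 47 genes, 8 were at least 1.5-fold lower and 0 higher, beside 7.28% and 2.52% of all 9877 genes, with a median of −0.36 beside −0.05 and 44 of 47 below 0. The share of all genes below 0 was not counted. After BDNF the median was −0.11 over 48 genes beside −0.05, with 0 higher and 2 lower, beside 1.73% and 7.01% of all 10079. In the GFP culture it was −0.23 over 48 genes beside −0.03, with 0 higher and 8 lower, beside 3.92% and 9.69% of all 9916. After 10 min of KCl it was 0.09 over 51 genes beside −0.05, with 1 higher (Sf3b4, an SF3B subunit, at 0.96) and 4 lower, beside 4.32% and 14.4% of all 11593. Srsf2 footprints stood at 152 CPM in the DIV14 control, 124 after BDNF, 110 after glu/gly and 83.4 in the GFP culture. Srsf7 footprints stood at 75.2, 72.8, 48.0 and 48.1 CPM in the same order. The control was thus the highest of the 4 cultures for both genes.

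TE put the SR genes lowest in each of the 3 comparisons with that control. After glu/gly, 12 of 32 genes had TE at least 1.5-fold lower and 0 higher, beside 23.1% and 0.993% of all 4731, with a median of −0.45 beside −0.30. The SR genes had a median of −0.78 with 6 of 6 below 0, the hnRNP genes −0.53 with 15 of 15, the U2 factors −0.27 with 7 of 7 and the snRNP genes −0.16 with 3 of 4. After BDNF, 4 of 34 genes were lower and 1, Sf3b3, higher, beside 7.16% and 1.76% of all 4705. All 4 lower genes were SR genes, Srsf1 (−0.60), Srsf2 (−1.21), Srsf7 (−0.61) and Srsf9 (−1.09). The SR median was −0.60 beside −0.11 for all genes. In the GFP culture the SR median was −0.52 with 6 of 6 below 0, beside 0.13 for all genes, while 5 of 31 genes, all hnRNPs, were at least 1.5-fold higher and 3 lower, beside 11.1% and 3.43% of all 4287. The share of all genes below 0 was not counted in these comparisons, and the values rest on few mRNA reads. Srsf2 had 30 RNA-seq reads in the DIV14 control and 50 after BDNF, and its mRNA change was 0.82 (0.14 to 1.53) while its RPF change was −0.30 (−0.47 to −0.12). With tail tags in place of RNA-seq, the mRNA change of Srsf2 after BDNF was −0.15.

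After KCl the TE of the splicing factors went with that of all genes. After 10 min, 7 of 33 genes had lower TE and 0 higher, beside 36% and 0.528% of all 4734 genes, with a median of −0.31 beside −0.41. After 30 min, 9 of 30 had higher TE and 0 lower, beside 30.9% and 6.34% of all 3535, with a median of 0.34 beside 0.32.

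After glu/gly and in the GFP culture, median tail changes stood near those of all genes in the same libraries. After glu/gly the median of 34 genes was −5.33 nt beside −4.68 nt, with 9 at least 10 nt shorter and 0 longer, beside 20.2% and 2.79% of all 3516 genes. In the GFP culture the median of 23 genes was −7.59 nt beside −8.45 nt, with 9 at least 10 nt shorter and 0 longer, beside 40.4% and 0.7% of all 1856. After 30 min of KCl, 7 of 33 were at least 10 nt longer and 0 shorter, beside 11.8% and 4.23% of all 2815, with Srsf6 at 103 nt in the control and 119 nt after KCl. The median change there was 8.91 nt for 7 SR genes beside 2.22 nt for all genes. It was 4.22 nt for the snRNP genes, 4.05 nt for the U2 factors and 1.82 nt for the hnRNP genes. After 10 min, 2 of 32 were longer and 3 shorter, beside 7.79% and 7.59% of all 2543. After BDNF, 2 of 36 were longer and 3 shorter, beside 6.27% and 9.03% of all 4098.

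The microRNA cultures were compared with the GFP culture, whose RNA-seq library was the shallowest. With miR-1, a muscle microRNA, 3 of 35 mRNAs were at least 1.5-fold higher and 2 lower, beside 7.29% and 7.56% of all 5902 genes. With miR-155, an immune-cell microRNA, 6 of 40 were higher and 1 lower, beside 8.62% and 6.74% of all 7726. Several of the higher genes had few GFP reads, such as Snrpd3 with 10 reads in the GFP culture, at 1.24 (0.24 to 2.38) with miR-1 and 1.04 (0.10 to 2.15) with miR-155. With miR-1 the median tail change was −4.33 nt over 22 genes beside −2.52 nt, with 0 at least 10 nt longer and 4 shorter, beside 5.09% and 14.9% of all 1748, and with a minimum of 100 tags the median turned to 2.56 nt. With miR-155 it was −2.42 nt over 23 genes beside −0.86 nt, with 2 longer and 3 shorter, beside 6.79% and 8.47% of all 1783.

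A microRNA pairs mainly through its seed, bases 2 to 8, with sites in the 3′ UTR. The mature miR-155-5p of RefSeq (chr16:84714143-84714165, plus strand, GRCm38.p6) is shown with the seed in capitals, followed by the sites of the 3 splicing factor genes that hold the strongest type, an 8mer (AGCATTAA), within 24 bases of their 3′ UTR.
miR-155-5p: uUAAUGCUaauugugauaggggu
Hnrnpa2b1 (chr6:51460964-51460987, minus strand): gagaaaaaAGCATTAAtaggcatt
Hnrnpa3 (chr2:75666073-75666096, plus strand): aatttaatAGCATTAAgattacct
Sf3b1 (chr1:54986265-54986288, minus strand): gaagaacaAGCATTAAggggctat
Sf3b1 (chr1:54985939-54985962, minus strand): ggatactgAGCATTAAccgtcccc

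The site is in capitals. An 8mer or a 7mer, either AGCATTA or the shifted form GCATTAA, was found in the 3′ UTR of 9 of the 55 genes (16.4%) and of 2000 of 16877 genes (11.9%). With miR-155, 8 measured members with a site had a median log2 mRNA change of −0.17 and 32 members without a site 0.04. Over all genes the medians were −0.19 for 1097 with a site and 0.04 for 6592 without. Sf3b1, with 8mers at both places, stood at −0.22 (−0.39 to −0.03), the only member with an 8mer whose interval lay below 0. Hnrnpa2b1 stood at 0.46 (0.09 to 0.84), from 69 reads in the GFP culture, and Hnrnpa3 had too few reads. The other members with a site lay between −0.45 (Snrpb, −0.93 to 0.05) and 0.22 (Hnrnpu, −0.01 to 0.45), and their intervals included 0.

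Several genes had tails on the same side of the typical length in every TAIL-seq library, and some of them also in the visual cortex. In the 10 libraries made by TAIL-seq (adult cortex and cultures), Snrpe lay 25.8 nt below the all-gene median (9 libraries), Sf3b6, an SF3B subunit at the branch point, 24.3 nt below (10 libraries) and Snrpb2 23.7 nt below (9 libraries), in every library with a value. At the other end, Srsf2 lay 17.9 nt, Hnrnpul2 15.6 nt and Hnrnpm 10.0 nt above, in 10 of 10 libraries, and Srsf5 13.6 nt above in 9 of 9. Snrpn tails, low in TE, lay 6.20 nt above the median in 10 of 10. In the 8 visual cortex libraries, made by PAL-seq v2 from other animals, Snrpe lay 19.7 nt and Sf3b6 19.6 nt below in 8 of 8, and Srsf2 8.80 nt and Hnrnpa0 11.1 nt above in 8 of 8. Over all 20 tail libraries Srsf2 lay above in 20 and Hnrnpa0 in 18. Hnrnpa0 lay below in the hippocampal libraries, with a lowest value of −7 nt. The other genes with long tails in TAIL-seq stood nearer to the median in the visual cortex, with Hnrnpul2 at 2.21 nt (8 of 8 above), Hnrnpm at 5.92 nt (7 of 8 above) and Srsf5 at −0.46 nt (3 of 8 above). Snrpb2 had a value in 1 of the 8 libraries. Sf3b5, an SF3B subunit, changed side between the sets. It lay 6.94 nt below in 10 of 10 TAIL-seq libraries and 5.64 nt above in 8 of 8 visual cortex libraries. Hnrnpab kept its side but differed in size, with 2.94 nt below in TAIL-seq and 12.6 nt below in the visual cortex. Tissue and method both differ between the sets and cannot be told apart.

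Light against dark asks whether visual experience alters poly(A) tags or tails within 1 h. Immediate early genes summed to 168 to 735 CPM in the dark mice and 2684 to 4824 CPM in the light mice, so the groups did not overlap. No splicing factor gene passed the test in either measure. For tags, edgeR's quasi-likelihood test with Benjamini-Hochberg adjustment called 1.21% of 9554 genes higher and 0.126% lower in light, and 0 of 47 members. At an unadjusted edgeR p under 0.05 there were 4 of 47 members, beside 903 of all 9554 genes. DESeq2 also called 0 members, with 3 at an unadjusted p under 0.05 beside 681 of all 9554 genes. The median log2 change was −0.005 for the members and for all genes.

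Srsf7 had 159, 165, 133 and 172 CPM in the dark mice and 175, 200, 213 and 188 CPM in the light mice. All light mice lay above all dark mice, with means of 157 ± 17.3 and 194 ± 16.2 CPM (SD, n = 4), a log2 change of 0.33 ± 0.10 (SE) and an edgeR adjusted p of 0.187. Hnrnpl had 99.2, 90.2, 97.6 and 76.5 CPM in the dark and 113, 101, 112 and 116 CPM in light, again without overlap, with 0.31 ± 0.12 and an edgeR adjusted p of 0.337. Srsf6, the last gene whose groups did not overlap, had a log2 change of 0.26 ± 0.13 (SE) and an edgeR adjusted p of 0.533. The groups thus did not overlap for 3 of 47 members, a share near the 5.76% of all 9554 genes. Hnrnpul2, at 310 ± 29.6 and 351 ± 31.4 CPM (SD, n = 4), and U2af2, at 209 ± 22.5 and 178 ± 14.9 CPM, had overlapping groups and edgeR adjusted p of 0.505 and 0.525. These differences exceeded the SD within groups, but none passed the adjusted test.

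For tails, limma called 0.231% of 4321 genes longer and 0 shorter in light, and 0 of 37 members. An unadjusted limma p under 0.05 was found for 5 of the 37 members and 170 of all 4321 genes. The median change was 7.57 nt for the members beside 3.75 nt for all genes, and 35 of the 37 were longer in light. The share of all genes that were longer was not counted. The SE was 6.68 nt for every member, a value that limma shared across genes. It therefore does not reflect the spread of a single gene. Leaving out a mouse moved the member median between 3.65 nt (without light mouse 3, beside 1.05 nt for all genes) and 10.6 nt (without light mouse 4, beside 6.21 nt). It was 4.32 nt without dark mouse 3 and 4.70 nt with array weights. The groups did not overlap for 0 of the 37 members, beside 0.625% of all genes. The median member tail was 90.7, 86.8, 74.9 and 78.5 nt in the dark mice and 82.5, 97.3, 99.8 and 78.9 nt in the light mice, so the groups overlapped. The all-gene medians of the same mice were 92.4, 90.7, 77.5 and 80.0 nt and 83.3, 94.1, 97.5 and 81.7 nt. Light mice 2 and 3 were highest in both.

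Sf3b1 tails were 85.8, 83.5, 66.0 and 67.8 nt in the dark mice and 86.7, 109, 111 and 75.2 nt in the light mice. Light mouse 4 lay below 2 of the dark mice. The means were 75.8 ± 10.3 and 95.3 ± 17.2 nt (SD, n = 4), a difference of 19.5 ± 6.68 nt (SE) with a limma adjusted p of 0.638. That SE is the one shared by all members and was not estimated from the spread of Sf3b1 alone. Without light mouse 4, Sf3b1 was the only member called, with 26.2 nt and a limma adjusted p of 0.0461, and over the other settings its adjusted p ranged from 0.178 to 1.00. Srsf6 tails, at 85.6 ± 8.75 and 103 ± 19.5 nt (SD, n = 4), differed by 17.7 nt with a limma adjusted p of 0.886, and Hnrnpll, a relative of Hnrnpl known from T cells, by 15.6 nt with 0.999.

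**Figure D4:**
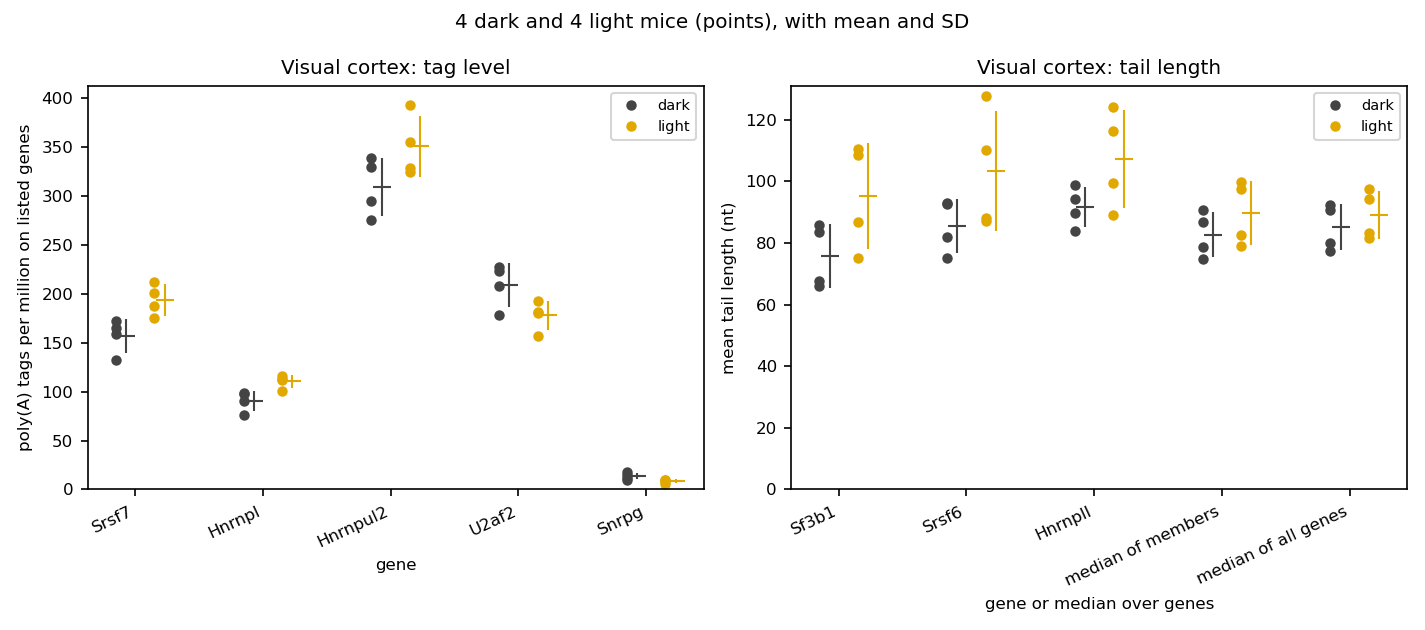
Tag levels of 5 genes (left, CPM) and mean tail lengths of 3 genes with the medians over the members and over all genes (right, nt) in 4 dark and 4 light mice, with mean and SD. The Srsf7 and Hnrnpl groups do not overlap in tag level, the other groups do, and none of the genes passed the test.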

How the data were processed

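RNA-seq, RPF and tail libraries of 3 tissues and 9 cultures and PAL-seq v2 libraries of 8 visual cortices were analysed (44 samples). The submitters' processing notes name STAR 2.4.2 and mm10, and the methods name another STAR version for PAL-seq reads. The authors deposited read counts per RefSeq open reading frame, without its first 50 nt. The authors also deposited RPM values, scaled to mapped reads, whose total reaches beyond the listed genes. Deposited tail files held tag counts and a tail length per gene, modelled for TAIL-seq with 5 states. Hippocampal tail lengths were taken as medians, the others as means.

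Hippocampal RNA-seq used poly(A)-selected RNA, adult cortex and 6 cultures rRNA-depleted RNA, and for the other 3 cultures the step is not stated. Counts were scaled to reads on listed genes. Ratios between single libraries needed 50 summed reads and carried no test. TE was log2 of RPF over RNA RPM (RNA at 10 RPM or more), and tails needed 50 tags. Light against dark was tested with edgeR 4.0.16 (quasi-likelihood, TMM) on tag counts and limma 3.58.1 on mean tails (R 4.3.3, Benjamini-Hochberg, 0.05); DESeq2 1.42.0 was an alternative. Other values came from Python 3.11.15, pandas 2.3.3 and scipy 1.17.1. The tests were tested on simulated data.

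Members and lists were chosen with earlier results of these data known. Named genes were the textbook members of each class, the 5 highest and 5 lowest of each comparison and sample, and for light the 3 smallest p in each direction. Snrpa1, Snrpb2 and Snrpd3 in the hippocampus, and genes named in a sample or comparison where that rule did not pick them, were chosen after their values were seen. The 2 RPF libraries labelled as microRNA cultures stayed unassigned, because their labels contradict each other. The authors' compiled tables were not used.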

Additional observations from a re-analysis of the deposited data

How the results depend on the processing

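The median mRNA change of the splicing factors between adult and embryonic hippocampus was −1.53 on the authors' RPM, −1.02 with TMM scaling and −0.89 with tail tags, and the RPF median was −1.04 with TMM, so the direction held while the size moved. TMM shifted all log2 changes by 0.19 for mRNA and 0.27 for RPFs there, and by 0.33 for mRNA between adult cortex and DIV14. With tail tags Sf3b1 turned to 0.062, and the cause was not tested. The mRNA median of adult cortex over adult hippocampus was −1.17 on the authors' RPM, that of adult cortex over DIV14 −0.34 with tail tags, and that of 30 min KCl −0.48 on the authors' RPM. The tail test called 10 genes in light, 1 on log2 tails, 3 with array weights, 1 with the replicate block, and 1 to 21 with a mouse left out. No member was called except Sf3b1 without light replicate 4, so the members called ranged from 0 to 1. The tag test called 128 genes, 100 to 150 with a mouse left out, 113 with the replicate block and 132 with DESeq2's Wald test, and 0 members in each. Same-numbered mice had correlations of their deviations of −0.20 to 0.04. Such values cannot show whether the mice were paired, and the labels do not say so. For the main values, 124 results of alternative settings stayed within the spread or, for counts of genes called, within 1.5-fold, and 18 moved further. Single genes were less stable. Of their mRNA changes between the hippocampi under alternative settings, 4 stayed within the counting error, 23 moved further and 1, Sf3b1 with tail tags, reversed. Medians without Snrpn were chosen after seeing the data. Depth limits genes with few reads in the shallow cultures most.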

Other observations

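The 2 RPF libraries that were left in no group held 817114 and 6428048 reads on listed genes. Of the 55 splicing factor genes, 51 and 53 were listed in them, with summed levels of 7436 and 7467 CPM. Snrpn stood at 229 CPM in the shallower and 116 CPM in the deeper library.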
